A study of Mus musculus with 15 samples.

Results

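The inner layer of the CA3 field in newborn Dcx knockout (KO) mice was compared with the CA3 layer of newborn wild-type (WT) mice. The comparison used 10 of the 15 arrays of the series, 5 of the KO inner layer and 5 of WT, chosen by their labels and by no measured value. The KO animals were labelled as Dcx mutants at postnatal day 0, and each inner array carried laser-microdissected tissue of the internal CA3 layer, pooled within 1 brain. The WT animals had the same age, and their CA3 layer was dissected and pooled in the same way. For all 10 samples, biotin-labelled product of amplified total RNA was put on an Illumina whole-genome bead array. The 5 arrays of the outer layer of the same KO brains entered the normalization and the filter on dim probes, and no test. The kind of Dcx allele, the strain and the sex of the animals are not given in the sources used here. The series asks where early-born neurons lie when doublecortin is missing, and the question here is which transcripts of the KO inner layer stand above or below those of the WT CA3 layer. In dissected tissue, fewer cells of a type and less RNA per cell cannot be told apart.

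Doublecortin, the product of the X-linked gene Dcx, binds microtubules in migrating and newly settled neurons. CA3 pyramidal neurons descend from radial glia of the hippocampal ventricular zone, directly or through intermediate progenitors, and climb into a compact cell layer. Radial glia are held in the progenitor state by Notch. When a ligand on a neighbouring cell binds the receptor, its inner domain is cut free, joins the DNA-binding protein RBPJ and turns on Hes1 and Hes5. These repressors keep off the proneural genes, among them Neurog2, whose products switch on Insm1, Hes6, Rnd2 and other genes of the step from progenitor to young neuron. GABAergic interneurons and oligodendrocyte precursors arise elsewhere and enter the hippocampus by migration, while Cajal-Retzius neurons lie near its surface and secrete reelin.

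Hes5, a target of Notch, was higher in the KO inner layer, and Hes6, an opponent of Hes1 that proneural factors turn on, was lower. A promoter of each is shown because these genes act on opposite sides of the step from progenitor to neuron, to which several of the genes below belong. Both sequences are the 250 bases before the gene's start, from RefSeq on GRCm38.p6. For Hes5 (chr4:154960673-154960922, plus strand) the capitals mark the RBPJ motif, GTGGGAA or TTCCCAC on the other strand. For Hes6 (chr1:91414039-91414288, minus strand) they mark the E-box CAGCTG, the kind of site that proneural factors bind and which reads the same on both strands.
Hes5 promoter: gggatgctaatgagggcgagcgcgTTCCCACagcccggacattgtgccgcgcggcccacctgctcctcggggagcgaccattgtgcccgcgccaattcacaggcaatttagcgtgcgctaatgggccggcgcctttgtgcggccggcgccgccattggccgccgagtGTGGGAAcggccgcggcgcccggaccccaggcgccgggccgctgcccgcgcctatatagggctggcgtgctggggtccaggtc
Hes6 promoter: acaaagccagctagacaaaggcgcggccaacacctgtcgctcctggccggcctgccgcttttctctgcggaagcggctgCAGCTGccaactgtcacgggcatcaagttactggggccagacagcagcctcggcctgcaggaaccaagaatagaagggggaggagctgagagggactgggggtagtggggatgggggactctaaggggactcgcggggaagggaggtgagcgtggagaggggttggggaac
The RBPJ motif occurred 2 times before Hes5, starting 226 and 83 bases before the start, and in 5.42% of the 32851 promoters of the table (6.35% of the 6863 measured genes that have one). The E-box occurred 1 time before Hes6, 171 bases before the start, and in 13.0% of all promoters (14.2% of the measured genes). The table holds 2 promoters of Hes6, and the one not shown also has 1 match to the E-box. The motifs were searched separately, and neither contains the other. The matches describe the letters of these windows and were not tested for binding.

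The groups do not account for all differences between arrays. Between 11539 and 11903 probes were detected on the inner arrays and between 10688 and 11625 on the WT arrays, and 8392 genes were measured. In another deposited table the authors had added a shift to the values of inner arrays 1 to 4 and none to inner array 5 and the WT arrays. The labels name no batch, so the 4 arrays are called shifted and the other 6 unshifted, and the values used here are those without the shift. On the first principal axis of the 10 arrays, with 43% of the variance, scores lay between −28.2 and −22.8 on the shifted inner arrays, at 6.54 on inner array 5 and between 13.5 and 23.8 on the WT arrays. Eif2s3y, which is Y-linked, read 8.34, 8.24, 8.39, 8.08 and 6.26 on inner arrays 1 to 5 and 6.13, 6.61, 6.51, 6.45 and 7.17 on WT arrays 1 to 5, so it parted the shifted from the unshifted arrays and not KO from WT. Of the other Y-linked genes, Kdm5d was 0.75 ± 0.22 higher on the log2 scale (SE, limma adjusted p = 0.0273), and Uty did not pass the test (−0.09). Kdm5d was detected on 4 inner arrays and 1 WT array, so its difference is set against a WT level near background. Its lowest inner value was on inner array 5 (4.92), which is given no direction. Inner array 5 is therefore set apart below, as a description of 1 array. It is also 1 of the 5 inner arrays in the fit. Its agreement with a call is thus partly built in and is no independent support. A called gene described with no remark on inner array 5 had it outside the WT range on the side of the call.

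Transcripts of tissues outside the brain also varied by array. The 10 measured skeletal muscle genes had a mean log2 signal of 8.31, 9.07, 5.18, 5.01 and 7.58 on inner arrays 1 to 5 and of 10.86, 9.825, 9.21, 5.265 and 5.54 on WT arrays 1 to 5. All 10 were detected on inner arrays 1, 2 and 5 and on WT arrays 1, 2 and 3. Bone and cartilage genes (9 measured) stood at 9.01, 10.07, 5.30, 5.30 and 8.0 in the inner layer and at 9.55, 5.27, 8.935, 5.35 and 5.84 in WT. None of the muscle, bone, meningeal fibroblast, keratinocyte or myeloid genes passed the test over 10 arrays, with both groups holding arrays high in these transcripts. Inner arrays 3 and 4 against WT arrays 4 and 5, the arrays low in muscle and bone, serve below as a further description, and in these all inner arrays are shifted and all WT arrays unshifted. That comparison called 1 muscle, 3 bone and cartilage and 1 meningeal gene. Markers of the CA3 field were at the same height throughout: the 7 measured genes of a list of 9 had a mean of 10.53 to 10.70 in the inner layer and 10.44 to 10.65 in WT, and all 7 were detected on all 10 arrays.

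**Figure D1:**
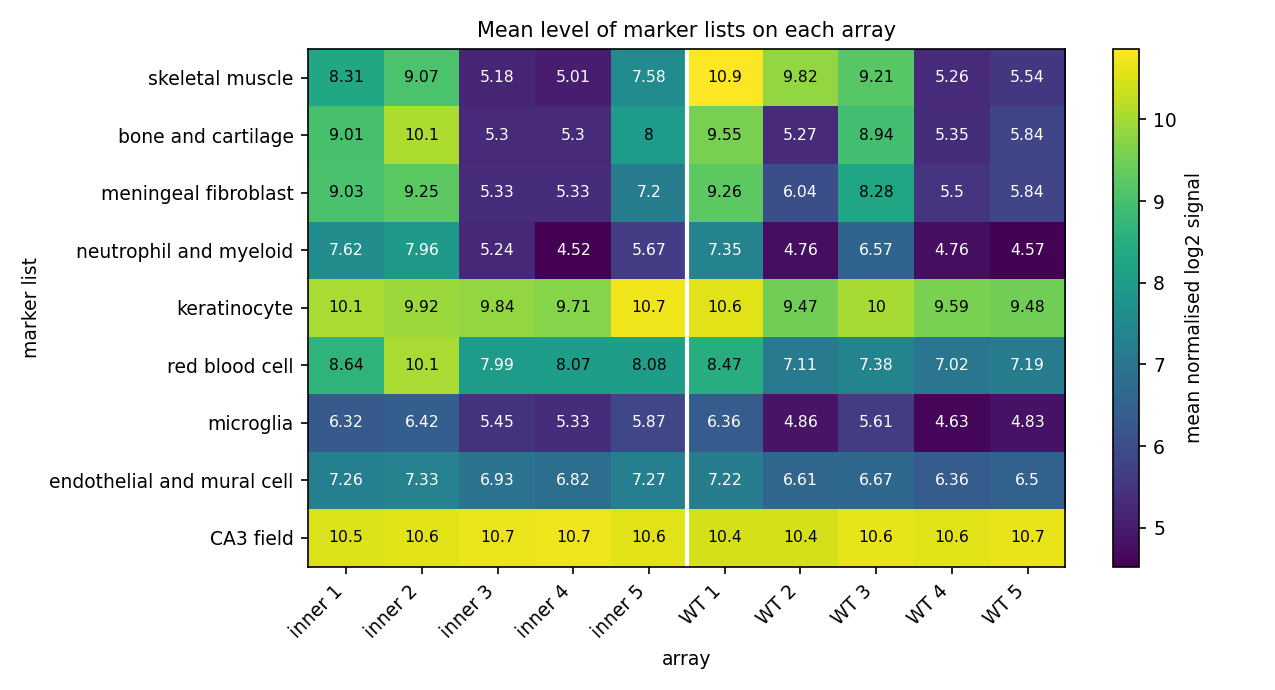
Mean normalised log2 signal of 9 marker lists (rows) on the 5 KO inner arrays and the 5 WT arrays (columns), with inner arrays left of the white line. Muscle and bone transcripts vary by array within both groups, while the CA3 field list stays between 10.44 and 10.70.

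Dcx was lower in the KO inner layer. Its brighter detected probe read 10.39, 10.51, 10.61, 10.60 and 10.36 on inner arrays 1 to 5, against 11.95, 12.07, 11.76, 12 and 12.04 on WT arrays 1 to 5. All inner arrays, inner array 5 included, lay below all WT arrays. The means were 10.49 ± 0.12 in the inner layer and 11.96 ± 0.12 in WT (SD, n = 5 each), a difference of −1.47 ± 0.09 (SE) or 2.78-fold lower, with a limma adjusted p of 5.23e-05. The other detected probe differed by −1.11, and the place of the probes relative to the mutation is not known from the labels. Of the related doublecortin-like kinases, Dclk3 was higher by 0.39 ± 0.10 (adjusted p = 0.018), whereas Dclk1 (−0.22, adjusted p = 0.0963) and Dclk2 (0.07, adjusted p = 0.70) did not pass the test.

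Across all genes, limma called 2493 of 8392 (29.7%) at an adjusted p under 0.05. Of these, 1155 were higher (13.8%) and 1338 lower (15.9%) in the KO inner layer. The counts of gene lists in this report stand beside these shares and were not tested against them. Changes of at least 2-fold over the 5 arrays were mostly upward, with 275 genes higher (3.28%) and 30 lower (0.357%). Of the 275, inner array 5 lay above all WT arrays for 101 and on the other side of the WT mean for 81. Of the 30, it lay below all WT arrays for 27 and on the other side for 0. Inner array 5 treated the directions differently. Among the genes called higher, it lay above all WT arrays for 604 (52.3%, or 7.20% of all genes) and on the other side of the WT mean for 206 (17.8%). Among those called lower it lay below all WT arrays for 1005 (75.1%, or 12% of all genes) and on the other side for 37 (2.77%). Of all 8392 genes, regardless of the call, inner array 5 lay above all WT arrays in 20.1% and below in 22.9%. The median of the genes called higher was 0.77 over inner arrays 1 to 4 and 0.25 on inner array 5, and that of the genes called lower was −0.51 and −0.275. These medians include the arrays on which the genes were called. Groups did not overlap, with all 5 inner arrays outside the WT range, for 480 of the genes called higher (5.72% of all genes) and 822 called lower (9.80%). Regardless of the call this was so for 6.15% of all genes above WT and 10.7% below.

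The calls also differed in how well a second probe bore them out. Among genes called higher with inner array 5 above the WT range, 142 had another kept probe, and in 32 of them (22.5%) another probe moved the other way. Where inner array 5 was not above the WT range, this was so in 55 of 120 (45.8%). For genes called lower the shares were 58 of 263 (22.1%) and 35 of 109 (32.1%). With the array batch as a term in the model, the difference rests on inner array 5 against WT. Inner array 5 is then assumed to vary like the other arrays, and 7 genes were called (0.0834% of all genes, and 835 genes at an unadjusted p under 0.05). Within the unshifted arrays alone limma called 0 genes, and 918 had an unadjusted p under 0.05.

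The 7 genes called with the batch term were Dcx, Cldn3, Insm1 and Emilin2, which were lower, and Olig1, Slc22a21 and Akap7, which were higher. Cldn3, which encodes a tight junction claudin, read 5.49, 5.71, 5.82, 5.37 and 5.80 on the inner arrays, against 7.40, 7.49, 7.22, 7.36 and 7.12 on the WT arrays. The groups were far apart, and Cldn3 was 3.20-fold lower (−1.68 ± 0.12, adjusted p = 5.23e-05). Emilin2, an extracellular matrix glycoprotein gene, read 7.84, 7.81, 7.84, 7.91 and 7.78 in the inner layer and 9.17, 9.20, 8.94, 9.25 and 8.97 in WT. All inner arrays lay below all WT arrays, and Emilin2 was 2.41-fold lower (−1.27 ± 0.09). Olig1, whose product directs cells toward the oligodendrocyte fate, read 10.98, 10.64, 10.81, 10.59 and 10.01 in the inner layer and 8.32, 8.17, 8.10, 8.20 and 8.64 in WT. The lowest inner value, on inner array 5, was above all WT arrays, and the difference over all arrays was 4.99-fold (2.32 ± 0.17). Akap7, which encodes an anchoring protein for protein kinase A, read 10.25, 10.29, 10.20, 10.14 and 10.30 in the inner layer and 9.19, 9.32, 9.48, 9.27 and 9.29 in WT. It was 1.90-fold higher (0.92 ± 0.08), with no overlap. Slc22a21, a carnitine transporter gene, was at least 1.19-fold higher (adjusted p = 0.000539), being detected on 5 inner arrays and not in WT. Where a gene was not detected in a group, the fold is a lower bound: it sets the other group's mean against the lowest signal that counted as detected on those arrays, or the gene's own signal where that is higher.

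**Figure D2:**
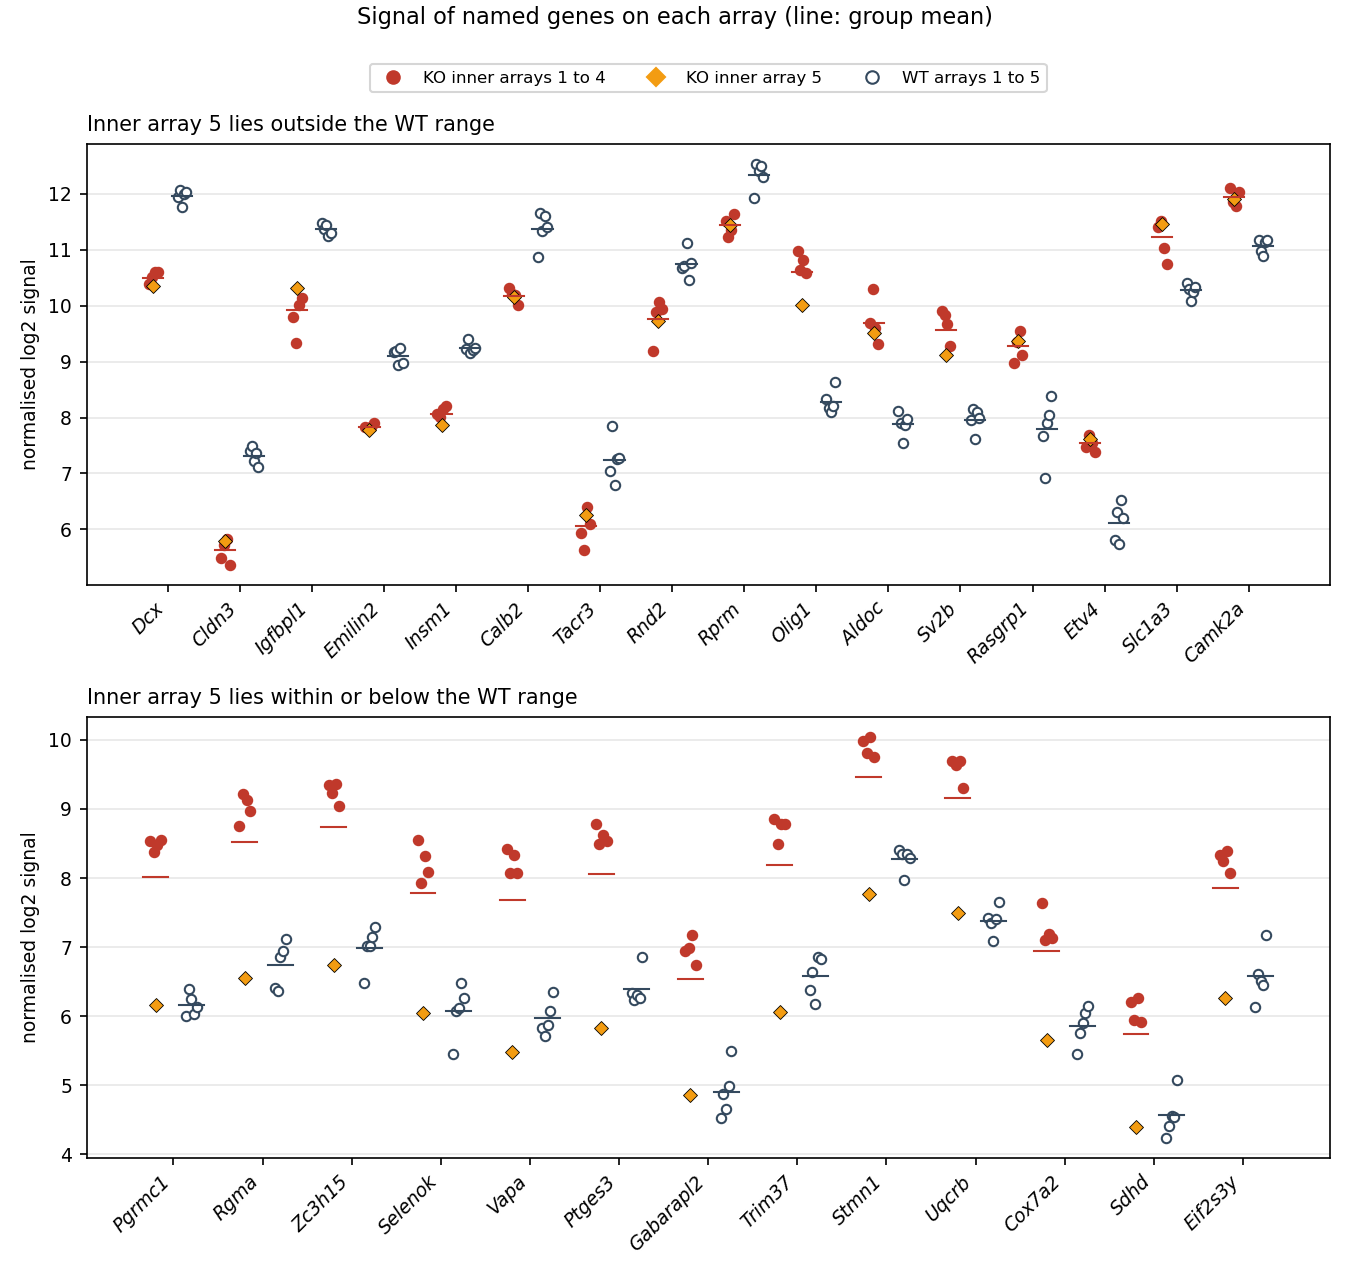
Normalised log2 signal of named genes on each array, with KO inner arrays 1 to 4 (filled circles) and inner array 5 (diamonds) left of the WT arrays (open circles), and lines at the group means. In the upper panel inner array 5 lies outside the WT range on the side of the call. In the lower panel the shifted inner arrays stand above WT while inner array 5 lies within or below the WT range.

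Genes of the step from progenitor to young neuron were called more often lower than higher. Of 20 genes on the list, 12 were measured, 5 were called lower (all 5 without overlap and with inner array 5 below the WT range) and 2 higher, and 5 did not pass the test. Insm1, a zinc finger repressor that drives the birth of intermediate progenitors, read 8.06, 8.01, 8.15, 8.20 and 7.87 in the inner layer, against 9.23, 9.41, 9.15, 9.20 and 9.24 in WT. It was 2.28-fold lower (−1.19 ± 0.09, adjusted p = 8.94e-05), and inner array 5 had the lowest value of all. Igfbpl1, a gene of young neurons with homology to the insulin-like growth factor binding proteins, read 9.80, 9.33, 10.01, 10.14 and 10.31, against 11.48, 11.37, 11.45, 11.24 and 11.30 in WT. It was 2.73-fold lower (−1.45 ± 0.16). Rnd2, a small GTPase gene that Neurog2 turns on and that migrating cortical neurons need, read 9.19, 9.89, 10.07, 9.95 and 9.73, against 10.67, 10.71, 11.12, 10.45 and 10.76 in WT, and was 1.97-fold lower (−0.98 ± 0.17). Neurog2 itself differed by −0.80 ± 0.20 (adjusted p = 0.0142). It was detected on 3 inner and 5 WT arrays, and inner array 5 differed from the WT mean by −0.25. Hes6 was lower by a smaller amount (−0.38 ± 0.09), as were its other probes (−0.12 and −0.32). Going the other way were Gadd45g, a growth arrest gene of the same step (0.67 ± 0.14, inner array 5 at 0.61), and the neuronal RNA-binding protein gene Elavl4 (1.46 ± 0.30, inner array 5 at 0.33 and within the WT range, another probe at 0.05). Tagln3, Mfap4 and Neurod1 did not pass the test (−0.24, −0.07 and 0.70).

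Radial glia markers were mostly higher. Of 22 genes 16 were measured, 11 were called higher and 1 lower, and in all 12 inner array 5 lay outside the WT range on the side of the call. The list had a median of 0.87 over 5 arrays, 0.70 on inner array 5 and 0.62 on the arrays low in muscle and bone, beside −0.07, −0.01 and −0.07 for all genes. Slc1a3, the glutamate transporter GLAST of radial glia and astrocytes, read 11.41, 11.51, 11.04, 10.74 and 11.46 in the inner layer and 10.40, 10.30, 10.09, 10.24 and 10.34 in WT. All inner arrays lay above all WT arrays, and the difference was 1.94-fold (0.96 ± 0.15). Nestin (Nes), the intermediate filament of neural progenitors, was 1.02 ± 0.16 higher (its other probe 0.30), and Aldh1l1, a folate enzyme gene of glia, 1.13 ± 0.20 higher (other probes 1.11 and 0.95). Ednrb, the endothelin B receptor, was 1.05 ± 0.27 higher, with overlap between the groups. The lower gene was Vim, the filament protein vimentin, at −0.61 ± 0.17 (inner array 5 at −0.36). Mfge8, Tnc and Dkk3 did not pass the test (0.51, 0.87 and 0.44).

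Within the Notch pathway, 15 of 24 genes were measured, 4 were higher and 2 lower, and inner array 5 lay outside the WT range for all 6. Hes5 read 6.31, 5.90, 6.36, 6.02 and 6.27 in the inner layer, against 4.70, 5.71, 4.91, 5.34 and 5.20 in WT, where it was detected on 3 arrays. The groups did not overlap, and Hes5 was higher by 1.00 ± 0.18 (adjusted p = 0.0047, other probe 0.49). The receptor gene Notch1 and the repressor gene Hes1 were detected on 5 inner and no WT arrays, and were at least 1.46-fold (adjusted p = 0.00371) and at least 1.44-fold higher (adjusted p = 0.00317). Both stood near the detection limit, at means of 5.59 and 5.57 in the inner layer. Hey1, a further Notch target, was 0.42 ± 0.13 higher, and its relative Hey2 was −0.43 ± 0.14 lower, another Hey2 probe differing by −0.05. The uncalled members of highest signal were Dner, Rfng and Numbl (0.26, 0.05 and −0.10).

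Astrocyte genes gave 8 higher and 1 lower among 13 measured of 19, and inner array 5 was above the WT range for 6 of the 8. Aldoc, the brain aldolase of astrocytes, read 9.69, 10.30, 9.61, 9.32 and 9.51 in the inner layer and 8.12, 7.90, 7.55, 7.86 and 7.97 in WT. It was 3.49-fold higher (1.80 ± 0.17) and inner array 5 lay within the range of the other inner arrays. The metallothionein genes Mt1 and Mt3 were higher by 1.29 ± 0.37 and 0.88 ± 0.16, the Mt1 groups overlapping and inner array 5 within the WT range (0.70). Id3, an inhibitor of differentiation, was 0.80 ± 0.14 higher (detected on 4 WT arrays), and Sparcl1, not detected on any WT array, at least 1.67-fold higher (adjusted p = 0.00446). Gja1, the astrocyte gap junction protein connexin 43, went down by −1.21 ± 0.36 with overlapping groups. Clu, Ntsr2 and Apoe did not pass the test (0.14, 0.22 and 0.61).

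Of the oligodendrocyte lineage 15 of 24 genes were measured, and 5 were called higher, all with inner array 5 above the WT range. Besides Olig1 these were Pdgfra, the growth factor receptor of oligodendrocyte precursors (1.33 ± 0.28), Omg, a myelin glycoprotein that neurons also make (1.02 ± 0.15), the transcription factor gene Nkx2-2 (0.51 ± 0.18, detected on 4 inner arrays and 1 WT array) and the receptor gene Gpr17 (0.51 ± 0.14, detected on 2 WT arrays). Only Olig1 and Omg were without overlap. Mbp, Sirt2 and Matn4 did not pass the test (0.18, −0.21 and −0.16). Cell cycle genes were higher in 8 and lower in 2 of 22 measured, inner array 5 being outside the WT range for 9 of these 10. Cdk1, the mitotic kinase, was 1.08 ± 0.18 higher, the topoisomerase gene Top2a 1.01 ± 0.24, the centromere histone gene Cenpa 0.97 ± 0.19, the chromatin protein gene Hmgb2 0.91 ± 0.12 and the G1 cyclin gene Ccnd2 0.91 ± 0.13. Cdkn1b, the cell cycle inhibitor p27, was −0.88 ± 0.16 lower, and the thymidylate synthase gene Tyms −0.69 ± 0.13.

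Markers of other cell types that the dissected tissue could hold were set beside these groups. Endothelial and mural genes were higher in 6 and lower in 0 of 17 measured, led by Igfbp7 (1.85 ± 0.24), Rgs5 (0.84 ± 0.20) and Flt1 (0.64 ± 0.14). Their mean level was 6.82 to 7.325 in the inner layer and 6.36 to 7.22 in WT. Of 6 measured microglia genes Cx3cr1 was called, not detected on any WT array and at least 1.33-fold higher (adjusted p = 0.00124), and the list stood at 5.325 to 6.42 in the inner layer and 4.63 to 6.36 in WT. Red blood cell genes were at 7.99 to 10.06 in the inner layer and 7.02 to 8.47 in WT, with Hbb-b2 called (1.33 ± 0.41, inner array 5 at 0.20). List medians over 5 arrays and on inner array 5 were 0.41 and 0.59 for endothelial and mural genes and 0.74 and 0.64 for microglia. They were 1.06 and 0.62 for red blood cell genes, beside 0.72 and 0.68 for astrocyte genes. The part of these cells in the results on glial and cell cycle genes was not tested.

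GABAergic interneuron genes were higher in 10 and lower in 2 of 15 measured of 25, with medians of 0.60 over 5 arrays, 0.61 on inner array 5 and 0.59 on the arrays low in muscle and bone. Gad1, which encodes a GABA-synthesising enzyme, read 9.88, 9.74, 9.96, 9.72 and 9.30 in the inner layer, against 7.96, 8.88, 8.39, 8.74 and 8.77 in WT. The groups did not overlap, inner array 5 was nearest to WT, and the difference was 2.25-fold (1.17 ± 0.19, other probe 1.52). Dlx1, a homeobox gene of interneurons, was 0.80 ± 0.13 higher with inner array 5 the highest of all at 9.72. The somatostatin gene Sst was 0.99 ± 0.16 higher and Nxph1, which encodes a neurexin ligand, 0.72 ± 0.13. Maf, a transcription factor of the same lineage, was 1.15 ± 0.24 higher and detected on 1 WT array. Dlx2 was 0.93 ± 0.26 higher over all arrays (detected on 4 WT arrays), but inner array 5 lay below the WT mean (−0.15). The lower genes were Nr2f2, a nuclear receptor of caudally born interneurons (−0.92 ± 0.26, inner array 5 at −0.71 and within the WT range), and the calretinin gene Calb2. Calb2 read 10.32, 10.21, 10.19, 10.01 and 10.16 in the inner layer, against 10.87, 11.66, 11.34, 11.60 and 11.41 in WT, and was 2.29-fold lower without overlap (−1.20 ± 0.14, other probe −1.44). Cck, Npas1 and Sp8 did not pass the test (−0.15, 0.32 and −0.14).

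Calb2 also stands on the list of Cajal-Retzius neurons, of which 3 of 8 genes were measured. The others were higher, namely Reln, the secreted migration signal reelin (0.83 ± 0.15), and the chemokine receptor gene Cxcr4 (0.47 ± 0.14). For all 3, inner array 5 was outside the WT range. Among genes of reelin signalling and migration, 5 were higher and 4 lower of 19 measured. Dab1, the adaptor that reelin acts through, was 0.65 ± 0.15 higher (other probes 0.08 and 0.53, inner array 5 at 0.20). Lower were Tiam2, an activator of the GTPase Rac (−1.20 ± 0.14), the kinase gene Cdk5 (−0.44 ± 0.11) and Pafah1b3, a subunit that binds the lissencephaly protein LIS1 (−0.43 ± 0.10), beside Rnd2. Cdk5r1, which encodes an activator of Cdk5, was 0.41 ± 0.10 higher, with inner array 5 at 0.10 and within the WT range.

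Pyramidal neuron genes were higher in 7 and lower in 1 of 10 measured of 14. Camk2a, a calcium-dependent kinase of excitatory synapses, read 12.11, 11.86, 11.78, 12.04 and 11.90 in the inner layer and 11.18, 10.98, 10.89, 11.14 and 11.17 in WT. No arrays overlapped, and the difference was 0.87 ± 0.10 (adjusted p = 0.000812, other probe 1.21). Nrn1, the growth factor neuritin, was 0.70 ± 0.09 higher, the transcription factor gene Cux2 0.61 ± 0.13 and the vesicular glutamate transporter gene Slc17a7 0.66 ± 0.14. Its sister transporter Slc17a6 was lower (−0.50 ± 0.16). Neurod2, a differentiation factor, was 0.67 ± 0.18 higher over all arrays with inner array 5 at the WT mean (8.16 on inner array 5, WT mean 8.16). Camk2b and Neurod6 did not pass the test (−0.24 and −0.17). Of the CA3 field list, Cpne4 was 0.55 ± 0.09 and Bok 0.44 ± 0.13 higher, with inner array 5 at 0.69 and, within the WT range, 0.09.

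Early-born and deep-layer neuron genes did not move one way, with 2 higher and 3 lower of 12 measured of 19. Rprm, a cell cycle inhibitor expressed in subplate and deep-layer neurons, read 11.52, 11.23, 11.36, 11.64 and 11.44 in the inner layer, against 11.92, 12.54, 12.40, 12.50 and 12.30 in WT. It was lower by −0.90 ± 0.13 without overlap, and by −0.90 on inner array 5. The nuclear receptor gene Nr4a2 (−0.55 ± 0.17, detected on 2 inner and 4 WT arrays) and Ddit4l (−0.54 ± 0.18) were also lower. Cdh13, the adhesion protein T-cadherin, read 8.44, 8.84, 8.35, 8.33 and 8.80 in the inner layer, against 7.72, 7.36, 7.22, 7.35 and 7.20 in WT. It was 2.27-fold higher (1.18 ± 0.14, other probe 0.84), and most so on inner array 2 and inner array 5. Tle4, a co-repressor, was 0.33 ± 0.11 higher with inner array 5 within the WT range. Crym, Fezf2 and Sox5 did not pass the test (0.02, −0.27 and −0.36).

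Of 26 measured synaptic vesicle genes 6 were called higher and 1 lower, beside 13.8% and 15.9% of all genes. Inner array 5, itself in the fit, lay above the WT range for the 6, as it did for 52.3% of all genes called higher. Sv2b, a vesicle glycoprotein, read 9.90, 9.83, 9.68, 9.29 and 9.11 in the inner layer and 7.95, 8.16, 7.61, 8.10 and 8.0 in WT. The groups did not overlap, and the difference was 3.03-fold (1.60 ± 0.17). Syt13, a synaptotagmin, was 1.27 ± 0.19 higher, its calcium-sensing relative Syt1 0.51 ± 0.08, Sv2a 0.53 ± 0.09, Napb 0.55 ± 0.09 and Rph3a 0.58 ± 0.18. The lower gene was the active zone scaffold Pclo (−0.45 ± 0.14), with inner array 5 at 0.04. Syp, Syt11 and Syn1, the brightest of the other members, did not pass the test (0.16, 0.14 and 0.13). Among neurexins, neuroligins and their partners, 4 of 20 measured were higher and 3 lower. The neurexin gene Nrxn3 was 1.06 ± 0.10 higher (inner array 5 at 1.08, other probe 0.48), and Nlgn1, not detected on any WT array, at least 1.80-fold higher (adjusted p = 0.00765). Ion channel genes were higher in 6 and lower in 2 of 22, inner array 5 being outside the WT range for 4 of the 6 and 1 of the 2, with the potassium channel gene Kcna1 at 0.80 ± 0.16 (detected on 2 WT arrays) and the leak channel gene Kcnk1 at −0.77 ± 0.14.

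Genes of neuropeptides and their receptors were called in both directions. Of 17 measured, 4 were higher and 5 lower, and 8 of these 9 were without overlap, inner array 5 included. Higher were the peptide genes Sst, Npy (0.59 ± 0.13) and Tac1 (0.53 ± 0.11, detected on 4 WT arrays) and the neuropeptide Y receptor gene Npy2r (1.26 ± 0.19). Lower was Tacr3, the neurokinin 3 receptor, which read 5.94, 5.63, 6.40, 6.10 and 6.26 in the inner layer, against 7.04, 7.85, 6.79, 7.26 and 7.28 in WT. It was 2.26-fold lower (−1.18 ± 0.20), though another probe gave −0.25. The somatostatin receptor gene Sstr1 was −0.91 ± 0.20 lower, the neurotensin receptor gene Ntsr1 −0.69 ± 0.11, the neurokinin 1 receptor gene Tacr1 −0.84 ± 0.21 and Adcyap1, which encodes the peptide PACAP, −0.92 ± 0.18. Adcyap1 was detected on 3 inner arrays, and the Tacr1 groups overlapped, with inner array 5 within the WT range (−0.59). Cck, Cckbr and Ntsr2 did not pass the test (−0.15, 0.63 and 0.22).

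Of regulators of Ras and ERK 17 of 34 were measured, 4 were called higher and 1 lower. The share called is near that of all genes, of which 29.7% were called, 13.8% higher and 15.9% lower. Rasgrp1, which loads Ras with GTP, read 8.98, 9.35, 9.56, 9.13 and 9.37 in the inner layer, against 7.67, 6.92, 7.91, 8.05 and 8.38 in WT. It was 2.81-fold higher (1.49 ± 0.23) and by 1.58 on inner array 5. Etv4, an ETS factor that ERK signalling turns on, read 7.47, 7.68, 7.54, 7.38 and 7.61, against 5.81, 6.31, 5.74, 6.53 and 6.20 in WT, and was 2.67-fold higher (1.42 ± 0.15). Dusp6, a phosphatase that acts on ERK and is itself an ERK target, was 0.59 ± 0.10 higher (other probes 1.46 and 0.07), and the exchange factor gene Rasgrf1 0.68 ± 0.20 with overlapping groups. Etv1, a relative of Etv4, was −0.89 ± 0.26 lower (other probe −1.03) but was detected on 1 inner and 4 WT arrays, and inner array 5 was within the WT range. Nras, Rasa1 and Map2k2 did not pass the test (−0.09, −0.30 and −0.11). Among immediate early genes Egr1, a further target of ERK, was 1.25 ± 0.23 higher and the phosphatase gene Dusp1 −0.39 ± 0.11 lower, of 7 measured.

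**Figure D3:**
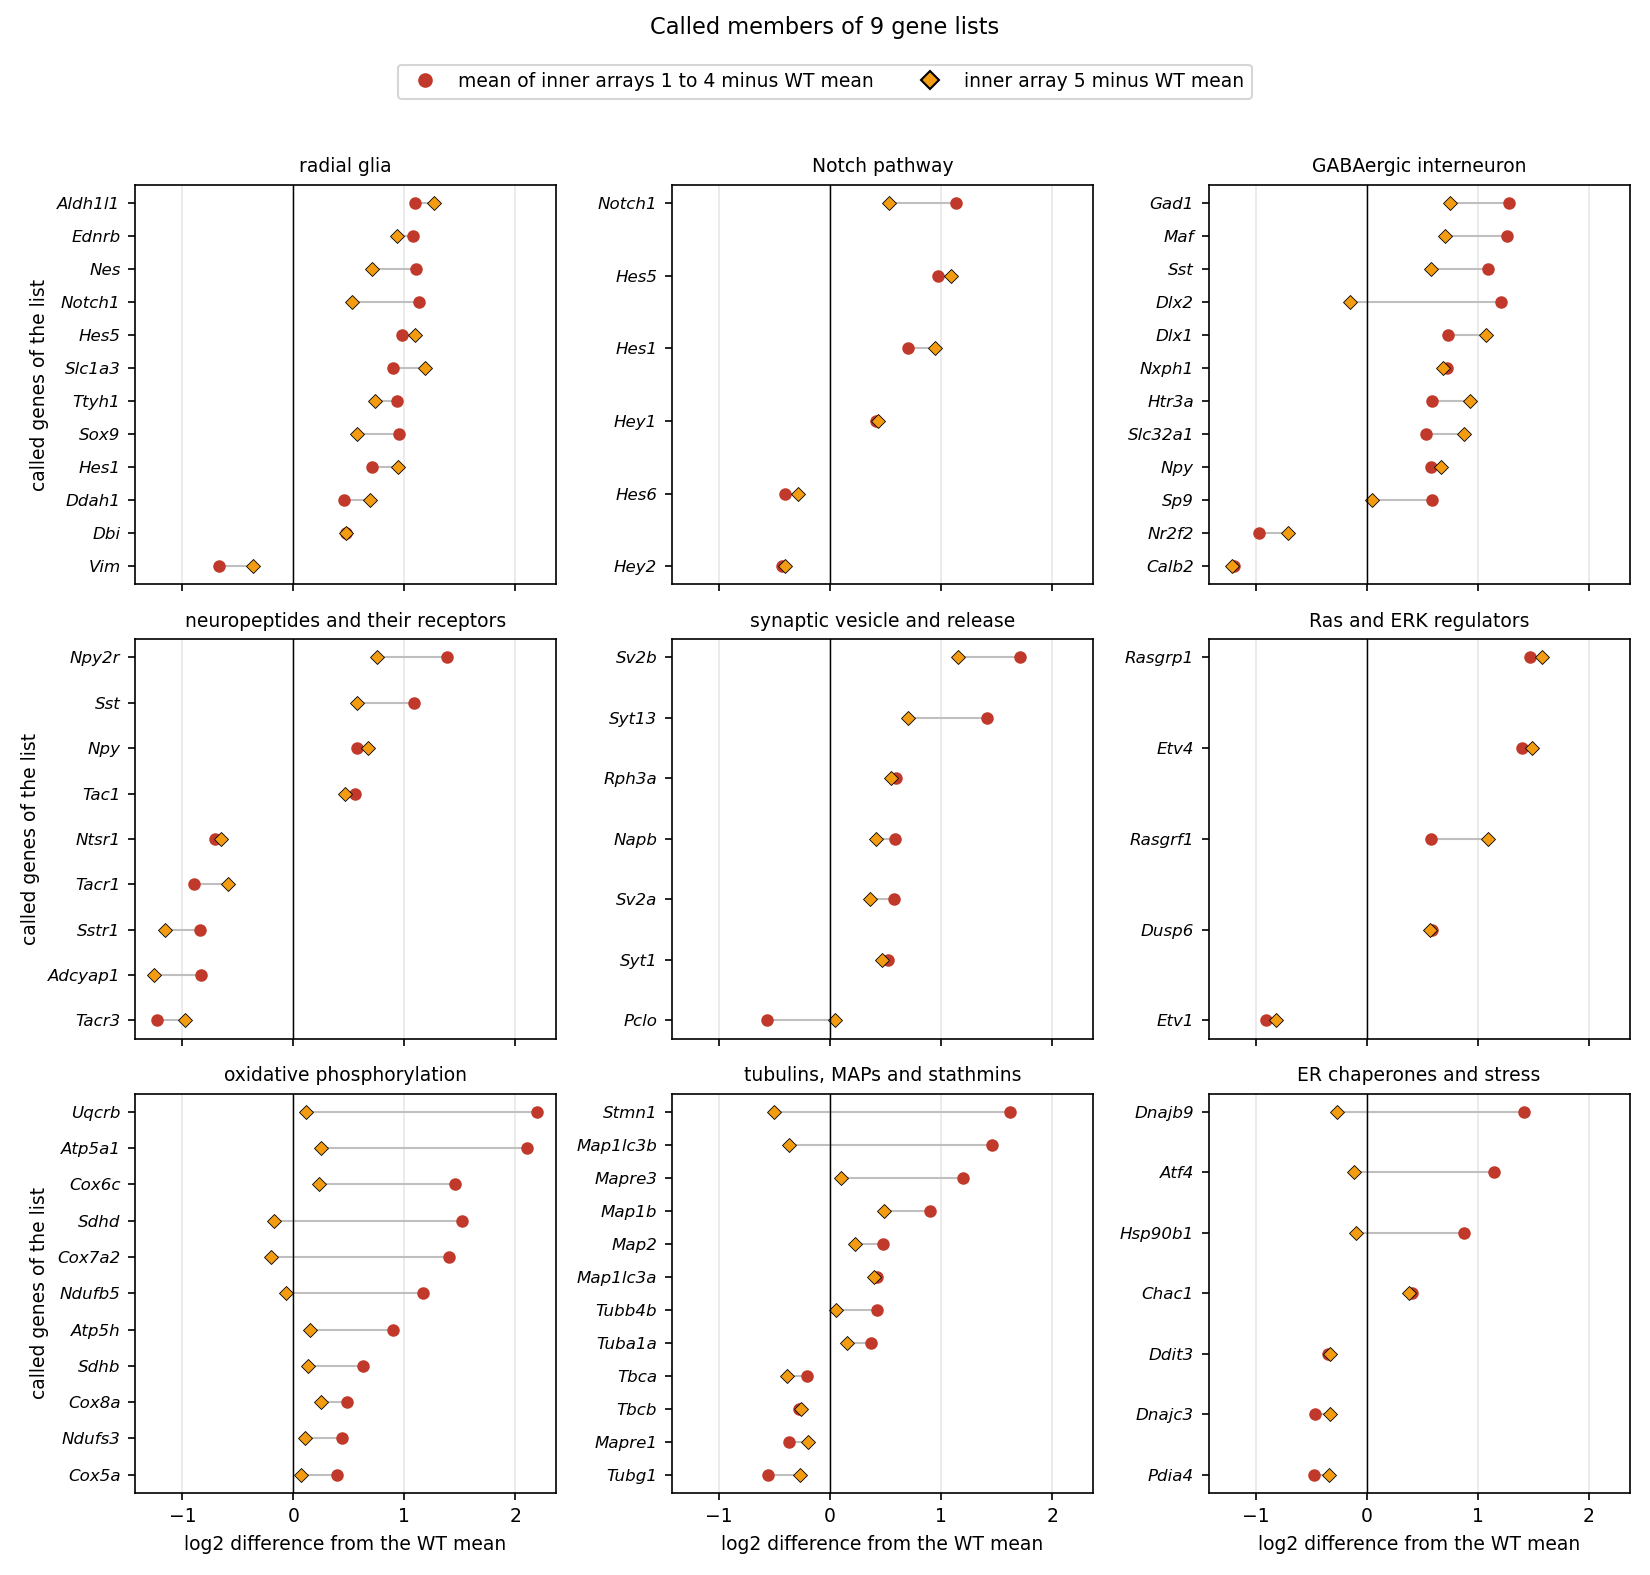
Called members of 9 gene lists, 1 panel each, with the log2 difference from the WT mean for inner arrays 1 to 4 (circles) and for inner array 5 (diamonds). The pairs lie on the same side of 0 in the Notch, neuropeptide and Ras and ERK panels, whereas in the panels of oxidative phosphorylation, microtubule and ER chaperone genes the diamonds of many genes called higher lie near 0.

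Of the guidance genes 8 were lower and 4 higher of 29 measured of 48, and inner array 5 lay outside the WT range for 6 of the 8 and 3 of the 4. The ephrin ligand genes Efnb1 (−0.78 ± 0.12, inner array 5 at −0.50) and Efna5 (−0.78 ± 0.25, inner array 5 at −0.28) and the ephrin receptor gene Ephb1 (−0.79 ± 0.18, inner array 5 at −0.67) were among the lower genes. The ephrin receptor gene Epha5 was among the higher ones (0.50 ± 0.12, inner array 5 at 0.66). Slit3, a secreted repellent, was lower (−0.55 ± 0.14, inner array 5 at −0.40) and its receptor gene Robo1 higher (0.61 ± 0.09). The semaphorin receptor gene Nrp2 was −0.74 ± 0.24 lower, inner array 5 being at −0.25 and another probe at −0.06. Sema5a was 1.69 ± 0.28 higher (other probe 1.27) and was detected on 1 WT array. In the Wnt pathway Wnt5a, a non-canonical ligand, was 0.74 ± 0.09 higher without overlap, the receptor gene Fzd7 was −0.91 ± 0.16 lower without overlap, and the secreted inhibitor gene Sfrp1 was −0.30 ± 0.09 lower. Ctnnb1, the beta-catenin gene, was 1.11 ± 0.25 higher with inner array 5 at 0.02. In the retinoic acid system the binding protein gene Crabp1 was 0.98 ± 0.17 higher and the receptor gene Rxrg −1.13 ± 0.27 lower (detected on 3 inner arrays), of 7 measured.

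The largest upward changes without overlap, beside those named, included genes in which inner array 5 was far closer to WT than the shifted arrays. St18, a MYT1 family factor gene, read 8.69, 8.47, 8.55, 8.13 and 6.51 in the inner layer and 4.98, 5.52, 6.05, 6.25 and 6.02 in WT. It was 4.95-fold higher over all arrays (2.31 ± 0.40) and 0.75 on inner array 5. Pabpc1, the poly(A)-binding protein gene, differed by 1.89 ± 0.35 and by 0.32 on inner array 5, and its other probes went the other way (−0.37 and −0.46). The mitochondrial phosphate carrier gene Slc25a3 (1.74 and 0.57), the ATP synthase subunit gene Atp5a1 (1.73 and 0.25) and the cytokine gene Il16 (1.81 and 0.75) also had the smaller value on inner array 5. Rassf3 had 1.62 and 0.65, but it was detected on 1 WT array, so its differences are set against a WT level near background. The histone gene H2bc4 (2.17 and 1.63, detected on 3 WT arrays), the proteoglycan gene Spock3 (1.71 and 1.13), Slc35f1 (1.67 and 1.11, detected on 3 WT arrays), the clock repressor gene Bhlhe40 (1.63 and 0.82) and the calcium sensor gene Ncald (1.62 and 0.94) were closer between the 5-array difference and inner array 5. The largest downward changes were also taken from genes without overlap, so inner array 5 lay below all WT arrays by that choice. For Fbxo30 it did so by little (6.81 against a lowest WT value of 6.87). Kcp, a modulator of BMP signalling, differed by −1.41 ± 0.22 and by −0.65 on inner array 5, Tmem132c by −1.21 and −0.90, the exchange factor gene Plekhg2 by −1.19 and −0.71, the F-box gene Fbxo30 by −1.16 and −0.61, Syt9 by −1.16 and −0.85, and Parm1 by −1.16 and −1.03. Wfdc2 was detected on no inner array and on 5 WT arrays, and by the WT mean was at least 2.29-fold lower (limma adjusted p = 0.0255). WT array 1 raised that bound, with 7.96 against 5.48 to 5.79 on the other WT arrays.

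Inner array 5 lay on the other side of the WT mean for 206 genes called higher, and the 8 with the largest differences over 5 arrays are given here. Pgrmc1, a haem-binding membrane protein, read 8.53, 8.37, 8.48, 8.55 and 6.16 in the inner layer, against 6.01, 6.39, 6.25, 6.04 and 6.14 in WT. Inner array 5 was within the WT range and the other 4 were far above it, so that the 3.62-fold difference (1.85 ± 0.40) rests on the shifted arrays. Rgma, a repulsive guidance molecule, differed by 1.79 over 5 arrays and −0.17 on inner array 5, Zc3h15 by 1.75 and −0.25, Selenok by 1.71 and −0.03, Vapa by 1.71 and −0.48, Ptges3 by 1.65 and −0.57, and Trim37 by 1.62 and −0.52. Gabarapl2 was detected on inner arrays 1 to 4 and on 1 WT array, so its difference of 1.64 is set against a WT level near background and inner array 5 has no direction. The 8 genes chosen by the same rule among those called lower differed less, by −0.57 (Slc38a10) to −0.69 (Fbxo27) over 5 arrays and by 0.13 and 0.03 on inner array 5. The others were Nme6, Oplah (detected on 3 inner arrays), Zfp954, Slc11a2, Atxn3 and Vezt, with −0.68 to −0.58 over 5 arrays and 0.00 to 0.13 on inner array 5.

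Oxidative phosphorylation genes were called in the upward direction only, in 11 of 40 measured, but in 6 of these inner array 5 was not above the WT range. Of all genes, 29.7% were called in either direction and 13.8% higher. Uqcrb, a subunit of complex III, read 9.70, 9.63, 9.69, 9.30 and 7.49 in the inner layer, against 7.42, 7.36, 7.08, 7.41 and 7.65 in WT. The shifted arrays were above all WT arrays, inner array 5 was within the WT range, and the difference over 5 arrays was 3.43-fold (1.78 ± 0.37). Cox7a2 (1.08 and −0.20 on inner array 5) and Ndufb5 (0.92 and −0.07) showed the same split between arrays. Sdhd (1.18) was detected on inner arrays 1 to 4 and on 1 WT array, so its difference is set against a WT level near background and inner array 5 has no direction. Cox6c (1.21 and 0.23) stayed above the WT range on inner array 5. Atp5b, Atp5g3 and Cox6b1, the brightest uncalled members, differed by −0.07, −0.03 and −0.01. The list had a median of 0.05 over 5 arrays and 0.07 on inner array 5.

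Tubulins, microtubule-associated proteins and stathmins, the partners of doublecortin on the microtubule, were higher in 8 and lower in 4 of 28 measured. Of all genes, 13.8% were called higher and 15.9% lower. Stmn1, which encodes a protein that destabilises microtubules, read 9.98, 9.81, 10.04, 9.75 and 7.77 in the inner layer, against 8.41, 8.34, 7.97, 8.34 and 8.29 in WT. Inner array 5 lay below all WT arrays and the shifted arrays above them, and the 2.29-fold difference (1.20 ± 0.37) has the opposite sign on inner array 5 (−0.50). Map1lc3b also had the opposite sign on inner array 5 (1.10 over 5 arrays and −0.37). The end-binding protein gene Mapre3 differed by 0.98 over 5 arrays and 0.10 on inner array 5. It was detected on 4 inner arrays and 1 WT array, so both values are set against a WT level near background. Map1b and Map2, neuronal MAPs, were higher on all inner arrays (0.82 ± 0.11 and 0.43 ± 0.10), but their other probes gave −0.01, −0.10 and −0.36 for Map1b and −0.12 and −0.04 for Map2. All 4 genes called lower were also lower on inner array 5 and without overlap. These were Tubg1, the gamma-tubulin of microtubule nucleation (−0.50 ± 0.09), the end-binding protein gene Mapre1 (−0.34 ± 0.08) and the tubulin-folding cofactor genes Tbcb (−0.28 ± 0.08) and Tbca (−0.25 ± 0.08). The brightest uncalled members, Tubb2b, Tuba1b and Stmn2, differed by 0.04, −0.13 and 0.03. Of 24 kinesin and dynein genes 5 were higher and 1 lower, led by Dynlt3 (1.87 ± 0.40, inner array 5 at 0.14) and Dynll2 (−0.72 ± 0.16, inner array 5 at −0.37).

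ER chaperone and stress genes showed the split by direction within 1 list. The 4 genes called higher had inner array 5 within or below the WT range, among them the chaperone gene Dnajb9 (1.08 ± 0.34, inner array 5 at −0.27) and Hsp90b1 (0.68 ± 0.21, −0.10). The stress factor gene Atf4 was detected on no WT array and on 4 inner arrays (at least 1.39-fold higher, limma adjusted p = 0.0212). The exception was inner array 5, which therefore has no direction for Atf4. The 3 called lower, Pdia4 (−0.45 ± 0.10), Dnajc3 (−0.44 ± 0.12) and Ddit3 (−0.34 ± 0.10, another probe 0.21), were below WT on inner array 5 too. Proteasome genes were higher in 5 of 28 measured, 1 of them above the WT range on inner array 5, with Psmd14 at 1.17 ± 0.24 and 0.14. Lysosome and proton pump genes were higher in 4 of 27, 1 of them above the WT range, with the pump subunit gene Atp6v1a at 1.84 ± 0.34 and 0.38. Cytosolic ribosomal protein genes were called in 3 of 31 and Golgi and coat genes in 7 of 33. Splicing and RNA-binding genes were lower in 7 and higher in 4 of 27, with Tra2a (−0.64 ± 0.15) and Srsf3 (−0.52 ± 0.10, another probe −0.48) lower on inner array 5 as well.

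**Figure D4:**
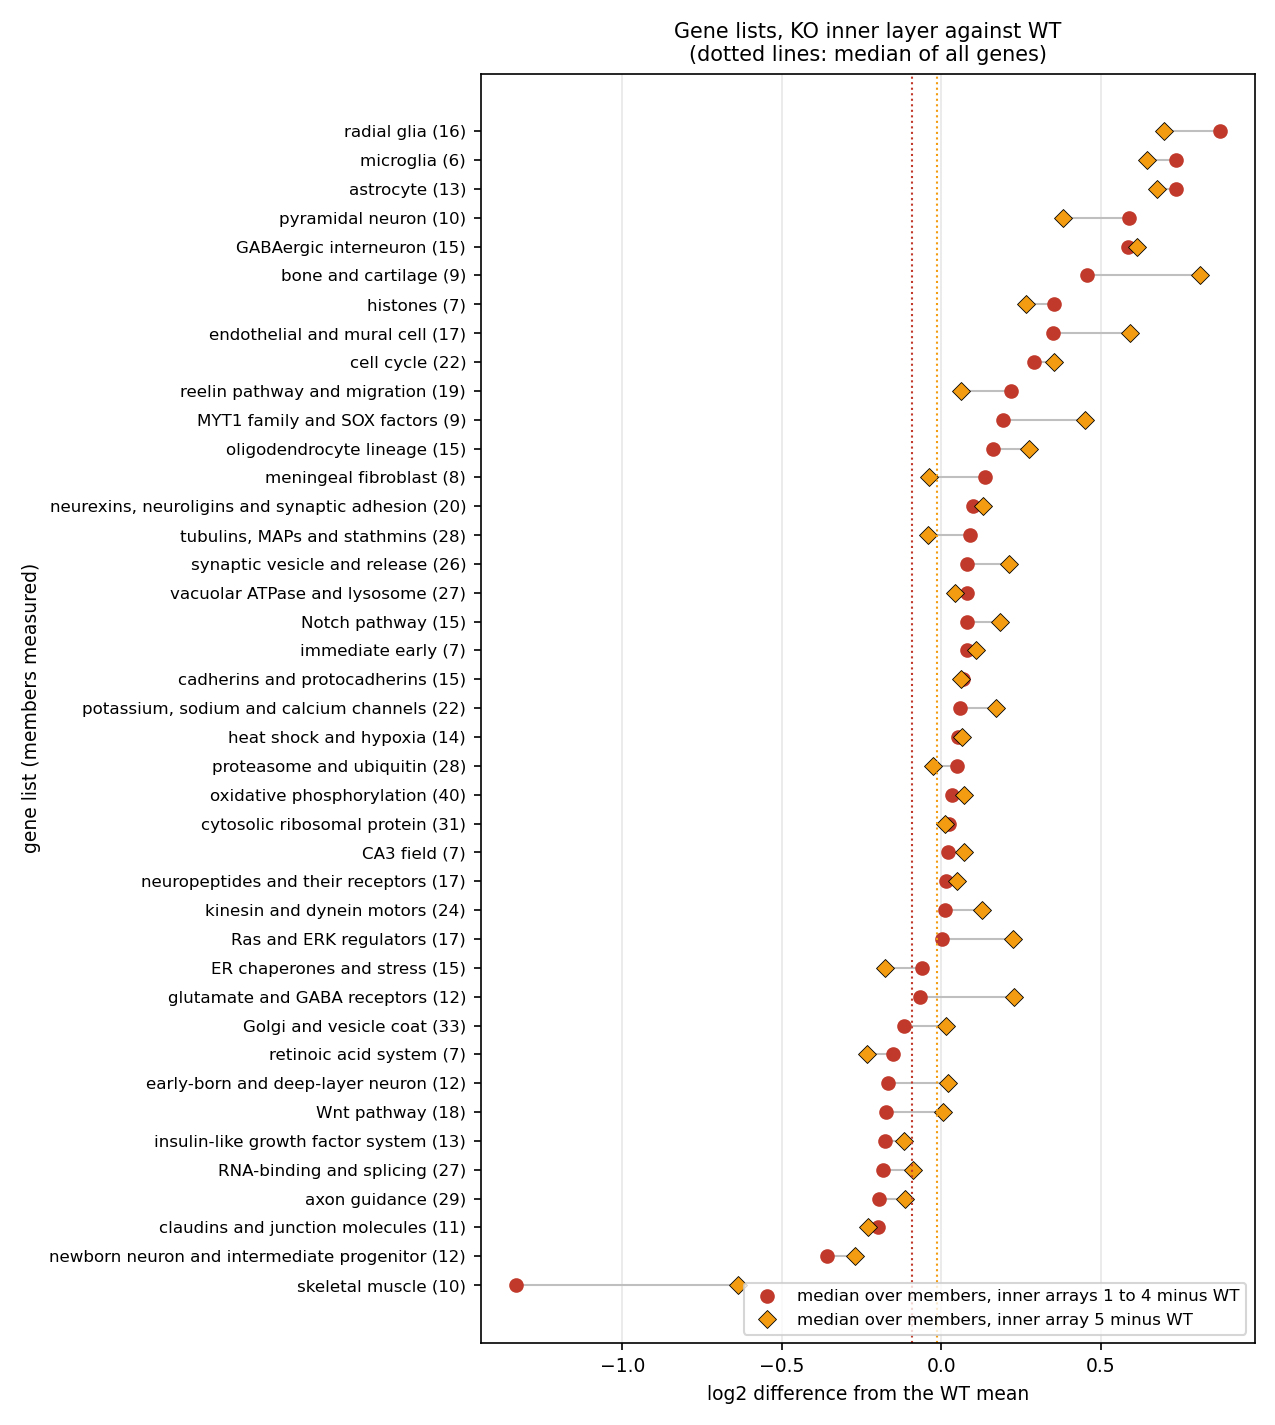
Median log2 difference from WT over the measured members of each list with 6 or more measured genes, for inner arrays 1 to 4 (circles) and inner array 5 (diamonds), with dotted lines at the medians of all genes. Radial glia, astrocyte, pyramidal and GABAergic lists lie above 0 on both, and the newborn neuron list lies below 0 on both. Lists of other cells also lie above 0 on both, among them microglia (0.74 and 0.64), endothelial and mural (0.35 and 0.59) and bone and cartilage (0.46 and 0.81).

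Of the glutamate and GABA receptor genes 1 of 12 measured was called (Gria1 at 0.29 ± 0.10), and of the heat shock and hypoxia genes 3 were higher and 1 lower of 14. Claudins and junction molecules gave 2 higher and 4 lower of 11, cadherins and protocadherins 3 and 1 of 15, the insulin-like growth factor system 1 and 2 of 13, histones 4 and 2 of 7, and MYT1 and SOX factors 3 and 1 of 9. Dentate granule neuron and choroid plexus lists had 1 measured gene each, Prox1 and Kl, and neither passed the test (0.39 and 0.48). On the arrays low in muscle and bone, inner 3 and 4 against WT 4 and 5, limma called 8 radial glia genes, against 12 over all arrays. The same counts were 8 and 12 for GABAergic genes, 6 and 7 for newborn neuron genes, 11 and 10 for cell cycle genes, 5 and 9 for astrocyte genes, 3 and 5 for oligodendrocyte genes, 5 and 8 for pyramidal genes, 6 and 9 for neuropeptide genes, and 7 and 11 for oxidative phosphorylation genes. Relative to all genes, the medians of the CA3 field, doublecortin family, kinesin and dynein, claudin, proteasome, Wnt, Golgi, RNA-binding and retinoic acid lists changed sign or reached 0 between ways of scaling the arrays, and no direction is given for these lists as a whole.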

How the data were processed

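Total RNA of laser-microdissected CA3 layers was amplified and hybridised to Illumina bead arrays. The deposited log2 signals are the authors' values per probe, not normalised between arrays as tested on the file, and how background was treated is not stated in the labels. In a further deposited table the authors' scores are the log2 signals minus each array's median over its SD, with a shift per entry on 8 of 15 arrays. It was used to read the array batches and as an alternative. The submitters' processing notes name limma, with no version.

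Of 26821 entries 25697 had a probe, and 1116 without one served as negative controls. From the deposited log2 signals, neqc (robust setting, limma 3.58.1, R 4.3.3) corrected background on the negative controls and quantile-normalised all 15 arrays with an offset of 16. A probe counted as detected at a negative-control p under 0.01, and the 11998 probes (46.7%) detected on at least 5 arrays were kept. Gene names came from the platform annotation (23978 probes with 1 symbol, 1719 with none, 0 with several; 23962 matched RefSeq), and the probe of highest mean stood for each of 8392 genes. The limma moderated test (lmFit, eBayes) compared 5 inner with 5 WT arrays, unpaired. Benjamini-Hochberg adjustment was over all 11998 kept probes, before 1 probe was taken for each gene, with a threshold of 0.05. The steps were tested on simulated data.

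The groups share replicate numbers in the labels, but deviations of same-numbered arrays correlated at 0.378, −0.176, −0.373, 0.554 and −0.215, so the numbers were not taken as pairs. The labels name 5 KO animals, and p-values measure only the spread between these arrays; the number of arrays limits the precision. Both groups were hybridised to 1 array a sample, and pairs of arrays correlated at 0.94 to 0.991. The comparison, gene lists and tests were chosen with earlier results of these data known. Named genes are Dcx, Dclk1 and Dclk2, the 15 largest called differences without overlap in each direction, the 8 called in each direction with inner array 5 on the other side of the WT mean, every gene called with the batch term, up to 6 called members per direction and 3 bright uncalled members of each list, and 4 Y-linked genes, of which Ddx3y was not measured. Alternatives were other normalizations, filters, probe averaging, array weights, the batch as a term, unshifted arrays alone, a replicate block, arrays low in muscle, and leaving out each array.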

Additional observations from a re-analysis of the deposited data

Results flagged for a closer look

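In 436 groups of 5 arrays, 1 group for each named gene and genotype, 1 array stood apart from the other 4 by more than Dixon's limit of 0.71 in 43. Chance flags about 1 in 20 groups, but 16 of the genes were named because inner array 5 lay on the other side of the WT mean, so the count cannot be read against that rate. Inner array 5 was the array that stood apart in 27 groups. The array that was lowest of its group, with its log2 level, was inner array 5 for Atp5a1 (6.76), Atp6v1a (7.65), Cdk5r1 (12.96), Cox6c (10.79), Cox7a2 (5.66), Ctnnb1 (10.34), Dlx2 (4.98), Dnajb9 (6.12), Dynlt3 (7.34), Eif2s3y (6.26), Gabarapl2 (4.85), Map1lc3b (6.85), Pabpc1 (8.77), Pgrmc1 (6.16), Psmd14 (8.18), Ptges3 (5.83), Rgma (6.56), Sdhd (4.39), Selenok (6.05), Slc25a3 (9.46), St18 (6.51), Stmn1 (7.77), Trim37 (6.05), Uqcrb (7.49), Vapa (5.48) and Zc3h15 (6.74). The array that was lowest of its group, with its log2 level, was inner array 2 for Camk2b (13.32) and Tyms (6.42). The array that was highest of its group, with its log2 level, was inner array 4 for Numbl (8.03) and Rph3a (7.93). The array that was highest of its group, with its log2 level, was inner array 5 for Fezf2 (10.37). Among WT arrays, array 1 was highest for Mt1 (10.73), Nkx2-2 (5.17) and Wfdc2 (7.96), and array 5 was highest for Ctnnb1 (10.70), Psmd14 (8.35) and Ptges3 (6.86). In WT, array 1 was lowest for Nr4a2 (4.94) and Tmem132c (7.29), and array 2 was highest for Kl (5.14). Of the WT arrays, array 2 was lowest for Nlgn1 (4.41), and array 3 was lowest for Stmn1 (7.97). In the same group, array 5 was lowest for Dnajc3 (7.18).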

How the results depend on the processing

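Over all genes the count of calls was 2493, and 2738 with quantile normalization and no background correction, 1969 with no filter on dim probes, 3308 with array weights. It was 189 with no normalization (92.6% of them higher, against 46.3%), 423 with median scaling (87.7% higher) and 1025 on the authors' scores (53.3% higher). The arrays low in muscle gave 1369 (59.5% higher). Adding the array batch to the model, which kept all 10 arrays, gave 7. The unshifted arrays alone hold only inner array 5 from the KO inner layer, so their count cannot be weighed against the others. The cause of the changes in count was not tested. Leaving out 1 array gave 1662 (without WT array 3) to 3276 (without inner array 5). The genes that inner array 5 bore out numbered 1609, and 146 with no normalization, 326 with median scaling, 903 on the scores, 7 with the batch term and 0 on the unshifted arrays. Leaving out 1 array gave 1266 to 1643. Inner array 5 was itself in the main fit, so its side is partly fixed by the call. With inner array 5 left out of the fit, 3276 genes were called. For 1630 of these it lay outside the WT range on the side of the call.

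With the replicate block limma called 1745 genes, 1225 of them borne out by inner array 5, and Dcx kept a difference of −1.47; the numbers do not pair the arrays. Dcx stayed lower in all alternatives run, between −1.52 and −1.44 without 1 array, and missed the threshold on the unshifted arrays alone (−1.61, adjusted p = 0.113; 0.00918 to 1.25e-06 in the other alternatives outside the omission of arrays).

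Of 217 named genes, 36 kept direction and side of the threshold with the batch as a term and 142 missed the threshold in the same direction. The other 39 changed sign or came to 0.00 at 2 decimals. These 39 genes had the same log2 differences with the term and on the unshifted arrays: Atf4 −0.12, Atp5b −0.00, Atxn3 0.06, Cox6b1 0.11, Cox7a2 −0.20, Crym −0.04, Dclk2 −0.18, Dlx2 −0.15, Dnajb9 −0.27, Dner −0.06, Eif2s3y −0.32, Fbxo27 0.03, Fezf2 0.11, Gabarapl2 −0.05, Hsp90b1 −0.10, Map1lc3b −0.37, Map2k2 0.05, Ndufb5 −0.07, Neurod1 −0.65, Neurod2 −0.00, Nme6 0.01, Nras 0.11, Oplah 0.02, Pclo 0.04, Pgrmc1 −0.01, Ptges3 −0.57, Rgma −0.17, Sdhd −0.17, Selenok −0.03, Slc11a2 0.10, Slc38a10 0.13, Sox5 0.02, Sp8 0.01, Stmn1 −0.50, Trim37 −0.52, Vapa −0.48, Vezt 0.13, Zc3h15 −0.25 and Zfp954 0.00. For Atp5b, which was −0.07 in the main fit, this is no change of sign. For Atf4, Gabarapl2 and Sdhd inner array 5 has no direction, as stated above.

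With no normalization the genes of changed sign were Atp5b 0.12, Atp5g3 0.13, Cox6b1 0.02, Matn4 0.03, Mfap4 0.03, Neurod6 0.01, Numbl 0.05, Sp8 0.01, Tuba1b 0.14 and Uty 0.01. Median scaling gave Atp5b 0.09, Atp5g3 0.10, Numbl 0.02 and Tuba1b 0.11, while Matn4 and Mfap4 came to −0.00, which is no change of sign. The scores gave Atp5b 0.16, Atp5g3 0.13, Cox6b1 0.20, Matn4 0.02, Neurod1 −0.04, Numbl 0.09, Sfrp1 0.03 and Tuba1b 0.16. The arrays low in muscle gave Crym −0.01, Numbl 0.03, Rfng −0.00, Tubb2b −0.06 and Uty 0.00, while Apoe came to 0.00. Array weights gave Mfap4 0.02 and Rfng −0.02, while Crym came to 0.00, and probe averaging gave Cox6b1 0.00. Leaving out 1 array changed the sign of uncalled genes only: Cox6b1 (−0.04 to 0.01), Crym (−0.03 to 0.04), Dclk2 (−0.03 to 0.13), Matn4 (−0.34 to 0.05), Mfap4 (−0.39 to 0.42), Rfng (−0.08 to 0.13), Stmn2 (−0.02 to 0.07) and Uty (−0.20 to 0.08). Tubb2b (0.00 to 0.08) came to 0.00, which is no change of sign.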
